A study of Mus musculus with 8 samples.

Results

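The genes described here make cholesterol and fatty acids, together with their SREBP regulators. They were listed by name from the 2 pathways, with earlier results of these data known. The list comprised 30 of the 39179 genes in the count table. All 30 had a row and passed the filter on low counts, which left 18345 genes in the test. RNA was sequenced from 5 small intestinal adenomas, benign growths of the gut lining, and from 3 samples of small intestine called wild type. Adenomas came from mice described as aged, carrying VilCreER and APCfl/+, that is 1 floxed and 1 normal allele of Apc, a tumour suppressor that holds down Wnt signalling through beta-catenin. Wild-type samples carried VilCreER alone. Both groups were of inbred C57BL6/J background and both had received tamoxifen, which activates the Cre recombinase that the villin promoter drives in intestinal epithelium. The comparison asks how expression in adenomas arising after Apc recombination differs from that of small intestine. The labels do not say how many mice the libraries came from, nor the age of the wild-type mice, so p-values measure the spread between these samples, which may in part be technical.

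Cholesterol is built from acetyl-CoA through the mevalonate pathway, whose units are joined to squalene, closed to lanosterol and trimmed to cholesterol. Fatty acids are built from acetyl-CoA carbon exported from mitochondria as citrate. The SREBP transcription factors stay bound in the endoplasmic reticulum by Insig proteins while sterol is plentiful, and move to the nucleus to switch on both pathways when it runs short. In small intestine this synthesis runs beside the uptake of dietary sterol and fat by villus enterocytes.

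SREBP proteins bind the sterol regulatory element, searched for here as TCACNCCAC on either strand in the 250 bases before each gene's start. RefSeq promoters on GRCm38.p6 were found for 24 of the 30 genes by symbol, so that the shares below leave out Scd1, Scd2, Fdft1, Fdps, Sqle and Stard4. The full 9 letters were present in 1 of the 24, Hmgcs1, and in 1.22% of all 27025 genes with a promoter. The first 8 letters, TCACNCCA, which lie inside the longer motif and were tried after the first search, were present in 3 of the 24, or 12.5%, and in 4.20% of all genes. The CCAAT box, which binds NF-Y, a partner of SREBP, was present in 20 of the 24, or 83.3%, against 37.5% of all genes. The GC box GGGCGG, which binds Sp1, was present in 19, or 79.2%, against 35.4% of all genes, and the E-box CACGTG in 4, or 16.7%, against 6.86%. A gene with more than 1 start counted as a match where any of its promoters held the letters. The 27025 genes were not limited to those tested for expression, so they are an unlike set to the 24. A match is a description of these letters and does not show binding. The 3 promoters with the sterol element letters are shown for the reader to see the motif in place, each as 120 bases read 5′ to 3′ on the gene's strand. Hmgcs1 lies on the plus strand at chr13:119690159-119690278, Msmo1 on the minus strand at chr8:64733692-64733811 and Srebf2 on the plus strand at chr15:82147051-82147170. Capitals mark the sterol element letters and the single CCAAT box of each stretch, which reads ATTGG where it lies on the other strand.
Hmgcs1: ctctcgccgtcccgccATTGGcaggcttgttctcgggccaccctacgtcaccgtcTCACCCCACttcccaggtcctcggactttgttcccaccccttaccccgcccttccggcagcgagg
Msmo1: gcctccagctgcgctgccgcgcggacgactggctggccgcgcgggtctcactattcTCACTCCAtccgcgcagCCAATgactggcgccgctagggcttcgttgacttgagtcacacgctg
Srebf2: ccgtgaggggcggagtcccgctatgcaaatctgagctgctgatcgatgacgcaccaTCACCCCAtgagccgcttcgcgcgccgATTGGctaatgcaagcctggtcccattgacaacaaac
The sterol element letters began 137 bases before the start of Hmgcs1, 177 before Msmo1 and 162 before Srebf2. All 3 genes were higher in adenoma under TMM scaling, by 0.77, 0.61 and 0.53 on the log2 scale, and below 0 under scaling to pan-epithelial genes.

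Apc, the targeted gene, was at 149.5, 153, 137, 132 and 159 CPM in adenomas 1 to 5, against 196, 191 and 211 CPM in wild types 1 to 3, so every adenoma was below every wild type. Libraries held 18040301 to 28343915 counts and differed in more than their group. Values below are CPM, that is counts scaled to a common library total, after TMM scaling, which sets the bulk of genes equal between libraries, as mean ± SD with n = 5 adenomas and n = 3 wild types, and log2 fold changes are adenoma over wild type ± SE. The 8 pan-epithelial marker genes summed to 5247 to 8909 CPM in adenomas and 4129 to 4427 CPM in wild types. Of these 8 genes, 6 were themselves called higher under TMM and 0 lower, with Krt18 at a log2 fold change of 2.54. Cdh1 and Cldn7 were not called, at 0.11 and -0.20. Scaling to their sum therefore also carries their own differences, and the part of these in the results was not tested. The 12 enterocyte markers summed to 628 CPM in adenoma 2, 10228 to 19487 CPM in the other adenomas and 35465 to 52859 CPM in wild types. Pancreatic acinar markers stood at 725 CPM in adenoma 5 and 1143 CPM in wild type 1, and at most 53.9 CPM elsewhere. Xist, the RNA of the inactive X chromosome, was at 432 to 761 CPM in adenomas 2 to 5 and at most 1.75 CPM in adenoma 1 and the wild types. Among markers of fat cells, which are rich in fatty acid synthesis, Lep was at 0 in every library, Adipoq and Plin1 were at most 0.0932 CPM, and the 10 adipocyte markers summed to 52.5 to 114 CPM in adenomas and 83.2 to 127 CPM in wild types. That sum was made up mostly of Cidec, Fabp4 and Pparg, and of the 5 tested markers Fabp4 and Pparg were called higher, at log2 fold changes of 0.69 ± 0.14 (edgeR adjusted p = 0.00305) and 1.88 ± 0.23 (edgeR adjusted p = 2.38e-04), while Plin4 and Adrb3 were called lower. The 7 hepatocyte markers, of a tissue that itself makes sterol and fat, summed to 106 to 824 CPM in adenomas and 1094 to 1256 CPM in wild types, mostly as Cps1, which enterocytes also express, except in adenoma 2, where Cps1 was at 3.38 CPM. Of the 5 of them tested, 4 were called higher, among them Alb at 17.5 to 47.6 CPM in adenomas and at most 0.600 CPM in wild types, and Ttr at 7.597 to 51.3 CPM in adenomas and 1.45 to 3.11 CPM in wild types. Smooth muscle markers summed to 397 to 995 CPM in adenomas and 869 to 1571 CPM in wild types. Gm42418, Lars2, Gm15564 and Gm26917, genes known to collect reads of ribosomal RNA, together took 15.1 to 23.5% of counts in adenomas and 10.7, 23.1 and 11.4% in wild types 1 to 3. The part that these differences have in the results was not tested. In whole tissue, fewer cells of a type and less RNA per cell cannot be told apart.

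Most of these genes were higher in adenoma when libraries were scaled by TMM. Of the 30, 23 were called higher, 2 lower and 5 neither way, and 7 higher and 5 lower when scaled to pan-epithelial genes instead. The TMM median of the 30 was 0.90 on the log2 scale, where that of all genes was 0.04. Among all genes tested, 58.1% were called, made up of 30.3% called higher and 27.8% called lower in adenoma (calls are at an adjusted p of 0.05 from edgeR's quasi-likelihood fit). The libraries of the 2 groups did not overlap for 24 of the 30 genes, 22 of them higher, and for 56.9% of all genes tested. Scaled to pan-epithelial genes, 5.83% of all genes tested were called higher and 54.4% lower. With libraries set to equal summed counts of those genes, the median of the 30 was 0.06 and that of all genes -0.74, so that the distance between the medians was 0.81, against 0.86 with TMM. Under either scaling 26 of the 30 lay above the median of all genes. A change of scaling shifts all genes by nearly the same amount. The likeness of these values under the 2 scalings was therefore largely fixed in advance. The 7 called higher under both were Mvd, Fdps, Fdft1, Cyp51, Tm7sf2, Scd1 and Scd2, and the 5 lower under the pan-epithelial scaling were Stard4, Acacb, Ebp, Sc5d and Dhcr7. With the Xist pattern as a covariate, a fit in which the group difference rests on adenoma 1 against the wild types, 16 were called higher and 1 lower, where 16.8% of all genes tested were called higher and 12.5% lower. The 8 calls lost in that fit were those of Idi1, Msmo1 (edgeR adjusted p = 0.0577), Hsd17b7 (0.0961), Insig1, Srebf1, Acaca (0.0604), Acacb and Scd1.

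**Figure D1:**
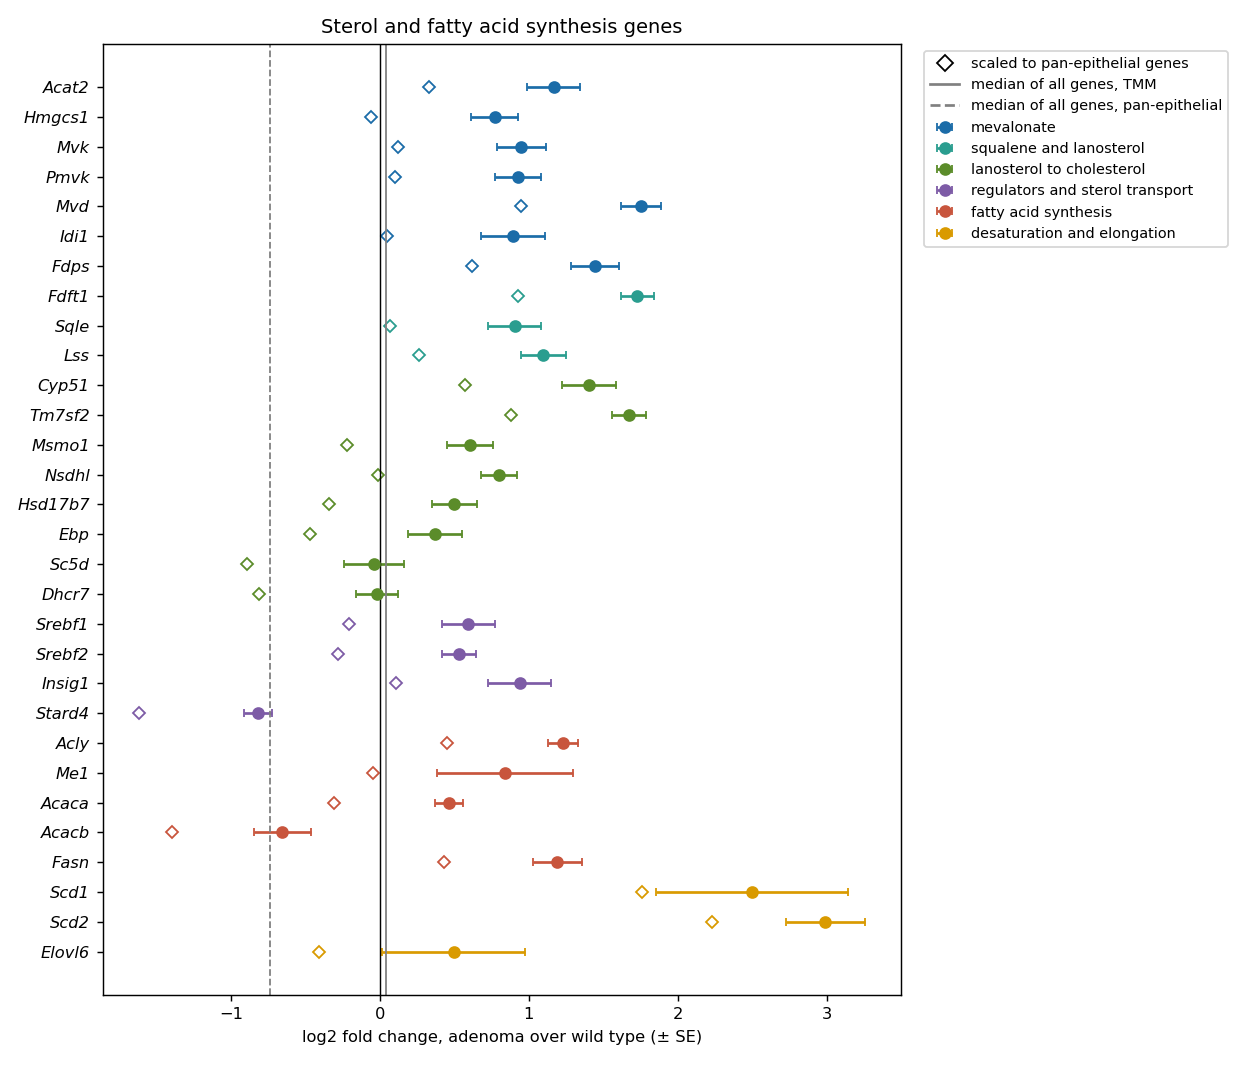
Log2 fold changes of the 30 genes, adenoma over wild type, in pathway order, with colours for the branches of the pathway. Filled points with bars are TMM values ± SE and open diamonds the values with libraries scaled to pan-epithelial genes, where 14 of the 30 lie below 0; vertical grey lines give the medians of all genes tested, 0.04 and -0.74.

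The mevalonate branch was higher as a whole under TMM, with 7 of 7 genes called, log2 fold changes of 0.77 to 1.75 and no overlap between the groups, while under pan-epithelial scaling Mvd and Fdps alone were called and Hmgcs1 stood at -0.06. Mvd (ENSMUSG00000006517, chr8:122433601-122443422 on GRCm38) makes isopentenyl diphosphate by removing carbon dioxide and stood at 50.3, 50.9, 52.7, 64.6 and 47.9 CPM in adenomas 1 to 5, against 14.7, 18.3 and 14.5 CPM in wild types 1 to 3. Every adenoma lay far above every wild type, at a log2 fold change of 1.75 ± 0.14 (edgeR adjusted p = 3.21e-05). Fdps, which joins these units to farnesyl diphosphate, stood at 27.3, 23.7, 30.5, 33.8 and 24.6 CPM in adenomas 1 to 5, against 8.91, 12.2 and 9.71 CPM in wild types 1 to 3. Its log2 fold change was 1.45 ± 0.16 (edgeR adjusted p = 1.57e-04), and 26.7% of its exon length is shared with the model Gm43738 on the same strand, and how reads there were counted is not known. Acat2, a cytosolic thiolase that makes acetoacetyl-CoA, was at 35.0 ± 5.99 CPM in adenoma and 15.6 ± 2.79 CPM in wild type, a log2 fold change of 1.17 ± 0.18 (edgeR adjusted p = 7.23e-04). Its neighbouring copy Acat3 was at 1.41 ± 0.441 CPM in adenoma and 1.38 ± 0.132 CPM in wild type, and how reads common to both were counted is not known.

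Hmgcs1, which adds the next acetyl group, was the most abundant gene of the branch per exon length, at 49.97 CPM per kb in adenoma and 29.3 in wild type. It stood at 246, 173, 256, 262 and 211 CPM in adenomas 1 to 5, against 118, 145 and 140.3 CPM in wild types 1 to 3. Adenoma 2 came nearest to the wild types, and the log2 fold change was 0.77 ± 0.16 (edgeR adjusted p = 0.00312). The kinases Mvk and Pmvk, which phosphorylate mevalonate in turn, had log2 fold changes of 0.95 and 0.93. Idi1, the isomerase that readies isopentenyl diphosphate for joining, was at 11.0, 7.28, 11.8, 14.0 and 11.0 CPM in adenomas 1 to 5, against 5.45, 7.02 and 5.29 CPM in wild types 1 to 3. Adenoma 2 lay just above wild type 2, and the log2 fold change was 0.90 ± 0.21 (edgeR adjusted p = 0.00693). This call was lost without wild type 1 and adenoma 5 together, at 0.84 (edgeR adjusted p = 0.0564), and with the Xist pattern as a covariate, at 0.89 (edgeR adjusted p = 0.0815).

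The steps that make squalene and close it to lanosterol were also higher in 3 of 3 genes under TMM, while under pan-epithelial scaling Fdft1 alone was called and the others kept positive values. Fdft1 (ENSMUSG00000021273, chr14:63145150-63179578 on GRCm38), squalene synthase, commits farnesyl diphosphate to sterols and stood at 87.6, 81.2, 82.4, 97.2 and 74.1 CPM in adenomas 1 to 5, against 25.2, 27.6 and 23.7 CPM in wild types 1 to 3. The groups lay well apart, at 3.31-fold or a log2 fold change of 1.73 ± 0.11 (edgeR adjusted p = 1.52e-05). Of its exon length 18.3% lies across exons of Ctsb on the other strand, and the kit does not keep strand, so reads there could not be told apart; Ctsb itself had a log2 fold change of 0.30. Sqle, the epoxidase that acts on squalene, was at 102 ± 15.8 CPM in adenoma and 54.4 ± 13.0 CPM in wild type, a log2 fold change of 0.90 ± 0.18 (edgeR adjusted p = 0.00283). Lss, which closes the ring to lanosterol, was at 86.5 ± 14.7 CPM in adenoma and 40.4 ± 2.45 CPM in wild type, a log2 fold change of 1.10 ± 0.15 (edgeR adjusted p = 4.25e-04).

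From lanosterol to cholesterol calls varied along the route. Of 8 enzymes 5 were called higher and 3 neither way under TMM, and under pan-epithelial scaling Cyp51 and Tm7sf2 were higher and Ebp, Sc5d and Dhcr7 lower. Cyp51, the demethylase that takes lanosterol, stood at 189, 123, 185, 222 and 180.2 CPM in adenomas 1 to 5, against 61.5, 73.7 and 68.5 CPM in wild types 1 to 3. Adenoma 2 was lowest of the adenomas and still above each wild type, and the log2 fold change was 1.40 ± 0.18 (edgeR adjusted p = 3.25e-04). Tm7sf2, a reductase of the sterol ring, stood at 41.1, 44.0, 44.0, 51.6 and 44.8 CPM in adenomas 1 to 5, against 15.9, 13.6 and 13.0 CPM in wild types 1 to 3. Its adenomas were close together, with a log2 fold change of 1.67 ± 0.11 (edgeR adjusted p = 1.95e-05). It shares 12.1% of its exon length with Vps51, whose log2 fold change was 0.21.

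Msmo1 and Nsdhl, which remove the methyl groups at carbon 4 with Hsd17b7, had log2 fold changes of 0.61 and 0.80 with separate groups. Hsd17b7 was at 44.4, 29.9, 47.0, 45.2 and 40.7 CPM in adenomas 1 to 5, against 26.4, 32.0 and 29.5 CPM in wild types 1 to 3. Adenoma 2 fell among the wild types, and the log2 fold change was 0.50 ± 0.15 (edgeR adjusted p = 0.0209). That call was lost when wild type 1 or wild type 3 was left out, at edgeR adjusted p = 0.0762 and 0.0603. Ebp, the isomerase of the following step, had a log2 fold change of 0.37 ± 0.18 (edgeR adjusted p = 0.109), and without adenoma 2, at 37.5 CPM against 58.03 to 70.1 CPM in the other adenomas, it was called higher at 0.48 (edgeR adjusted p = 0.00184). Sc5d, a desaturase late in the route, stood at 97.9, 55.3, 103, 110.04 and 89.4 CPM in adenomas 1 to 5, against 105, 86.1 and 90.2 CPM in wild types 1 to 3. Again adenoma 2 was the lowest library, while the other adenomas, at 89.4 CPM and above, overlapped the wild types, and the log2 fold change was -0.04 ± 0.20 (edgeR adjusted p = 0.876). Dhcr7, which makes the last double-bond reduction in one arm of the pathway, stood at 18.6, 21.5, 21.6, 21.5 and 20.8 CPM in adenomas 1 to 5, against 16.0, 23.3 and 23.9 CPM in wild types 1 to 3. These groups overlapped, with a log2 fold change of -0.02 ± 0.14 (edgeR adjusted p = 0.913).

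**Figure D2:**
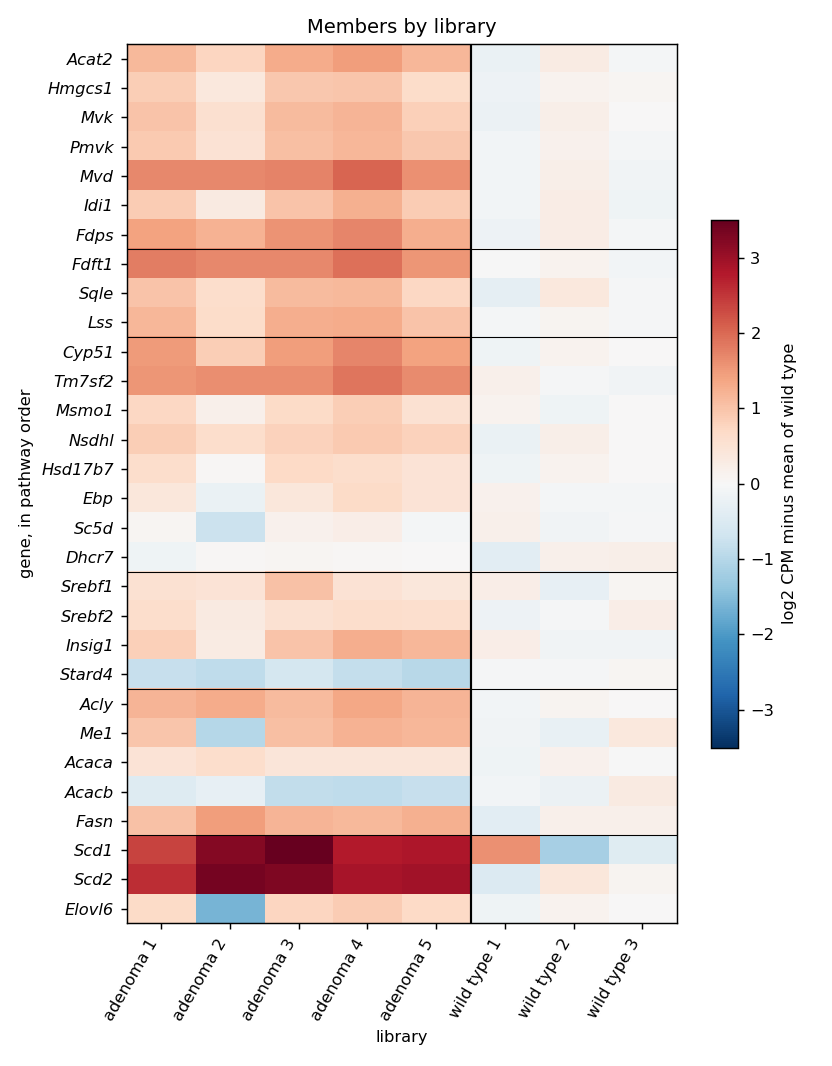
Log2 CPM (TMM scaling) of each gene in each library minus the mean of its wild types, with genes in pathway order and horizontal lines between branches. Adenomas stand left of the vertical line; Scd1 and Scd2 carry the deepest red, Stard4 and Acacb are blue in all 5 adenomas, and adenoma 2 alone is blue for Elovl6 and Me1.

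For the 18 sterol enzymes together, 15 were called higher and 0 lower under TMM (5 higher and 3 lower under pan-epithelial scaling), and their summed level was 1291 ± 198 CPM in adenoma and 710.02 ± 34.0 CPM in wild type. Sums in single libraries were 1342, 988, 1383, 1515 and 1227 CPM in adenomas 1 to 5, against 680.4, 747 and 703 CPM in wild types 1 to 3. Adenoma 4 held the highest level of 16 of the 18 among the adenomas and adenoma 2 the lowest of 14. The median deviation was -0.40 in adenoma 2 and 0.25 in adenoma 4 on the log2 CPM scale, each from the mean of the adenomas.

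Regulators showed both directions. Srebf2, the transcription factor mainly linked to sterol genes, stood at 131, 108, 123, 132 and 129.6 CPM in adenomas 1 to 5, against 75.2, 84.1 and 100.01 CPM in wild types 1 to 3. The groups did not overlap, and the log2 fold change was 0.53 ± 0.12 (edgeR adjusted p = 0.00459). Srebf1, mainly linked to fatty acid genes, stood at 189.8, 183, 271, 189 and 173 CPM in adenomas 1 to 5, against 154, 108 and 138 CPM in wild types 1 to 3. Adenoma 3 was well above the rest, and the log2 fold change was 0.59 ± 0.18 (edgeR adjusted p = 0.0196). The Srebf1 call was lost when wild type 2 or wild type 3 was left out (edgeR adjusted p = 0.0761 and 0.0527) and with the Xist pattern as a covariate, at 0.51 (edgeR adjusted p = 0.205), and both Srebf genes stood below 0 under pan-epithelial scaling, at -0.28 for Srebf2 and -0.21 for Srebf1. Counts per gene do not separate the 2 main Srebf1 transcripts.

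Insig1 holds SREBP in the endoplasmic reticulum and is itself a target of SREBP. It stood at 138, 96.1, 155, 189 and 174 CPM in adenomas 1 to 5, against 91.9, 71.6 and 72.2 CPM in wild types 1 to 3. Adenoma 2 was nearest to the wild types, and the log2 fold change was 0.94 ± 0.21 (edgeR adjusted p = 0.00550), or 0.11 under pan-epithelial scaling (edgeR adjusted p = 0.602). With the Xist pattern as a covariate its call was lost, at 0.81 (edgeR adjusted p = 0.0977). Stard4, a protein that carries cholesterol between membranes and is known as a sterol-repressed SREBP target, went the other way. It stood at 88.1, 84.1, 101, 87.4 and 79.2 CPM in adenomas 1 to 5, against 151, 152 and 163 CPM in wild types 1 to 3. All 5 adenomas lay below all wild types, at a log2 fold change of -0.82 ± 0.09 (edgeR adjusted p = 1.80e-04), and the call held in each of the 17 alternatives, between -1.62 and -0.74.

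RNA of the fatty acid synthesis enzymes was mostly higher in adenoma under TMM, with 5 of 8 called higher and 1 lower. Under pan-epithelial scaling only Scd1 and Scd2 were still called higher. The summed level of the 8 enzymes was 1616 ± 145 CPM in adenoma and 566 ± 64.5 CPM in wild type. In single libraries it was 1394, 1731, 1759, 1600.2 and 1597 CPM in adenomas 1 to 5, against 492, 613 and 592 CPM in wild types 1 to 3. Adenoma 2, lowest for the sterol enzymes, was second among the adenomas here, and Scd2 gave 724 of its 1731 CPM. Among the adenomas it was highest for Scd2, Fasn, Acaca and Acacb and lowest for Elovl6 and Me1. In a sum without Scd2, made after the values were seen, adenomas 1 to 5 stood at 962, 1007, 1066, 1077 and 1048 CPM, against 441, 519.6 and 516 CPM in wild types 1 to 3, so that adenoma 2 was above adenoma 1 alone among the adenomas, and the ratio of the means was 2.10 in place of 2.86.

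**Figure D3:**
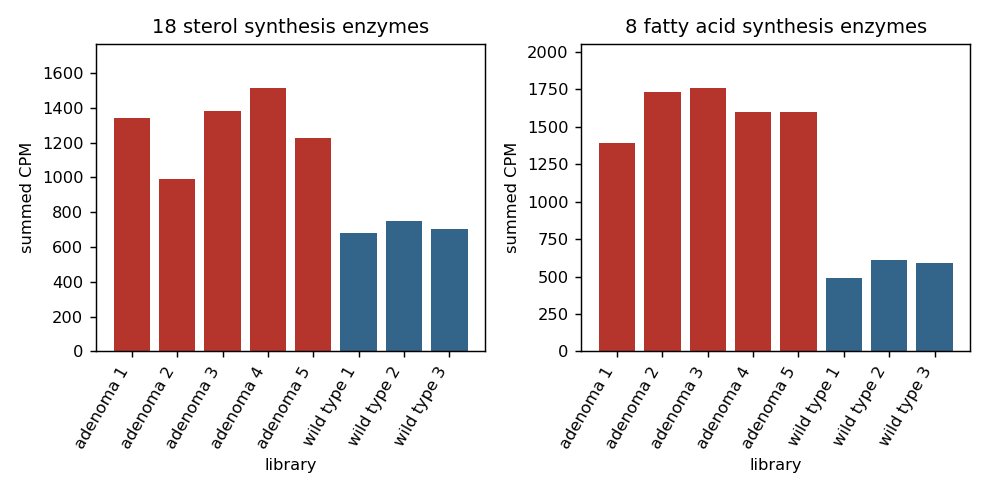
Summed CPM (TMM scaling) of the 18 sterol synthesis enzymes and the 8 fatty acid synthesis enzymes, 1 bar for each library. Every adenoma bar is above every wild-type bar in both panels; adenoma 2 is the lowest adenoma for sterol enzymes, at 988 CPM, and second highest for fatty acid enzymes, at 1731 CPM, of which Scd2 gave 724 CPM.

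Acly, which splits citrate into acetyl-CoA, stood at 268, 292, 254, 303 and 269 CPM in adenomas 1 to 5, against 111, 125 and 119 CPM in wild types 1 to 3. The adenomas varied little, and the log2 fold change was 1.23 ± 0.10 (edgeR adjusted p = 4.41e-05). Fasn, the synthase that builds palmitate, stood at 383, 513, 429, 413 and 442 CPM in adenomas 1 to 5, against 145, 213 and 214 CPM in wild types 1 to 3. Adenoma 2 was the highest library, and the log2 fold change was 1.19 ± 0.17 (edgeR adjusted p = 4.80e-04). Under pan-epithelial scaling both stayed above 0 without a call, at 0.45 for Acly (edgeR adjusted p = 0.0944) and 0.43 for Fasn (edgeR adjusted p = 0.204).

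The acetyl-CoA carboxylases parted. Acaca, the cytosolic form that supplies malonyl-CoA for synthesis, was at 45.1 ± 2.60 CPM in adenoma and 32.7 ± 3.60 CPM in wild type, a log2 fold change of 0.46 ± 0.10 (edgeR adjusted p = 0.00336) that turned to -0.31 under pan-epithelial scaling. Acacb, the mitochondrial form whose malonyl-CoA restrains fatty acid oxidation, stood at 9.28, 10.4, 6.84, 6.83 and 7.21 CPM in adenomas 1 to 5, against 11.7, 10.9 and 15.7 CPM in wild types 1 to 3. All adenomas lay below all wild types, with adenoma 2 close to wild type 2, and the log2 fold change was -0.66 ± 0.19 (edgeR adjusted p = 0.0166). Leaving out wild type 3, the highest library, ended this call at -0.48 (edgeR adjusted p = 0.0886), as did the fit with the Xist pattern at -0.46 (edgeR adjusted p = 0.298). A test of Acaca against Acacb was not made. Per exon length Acaca was at 2.64 CPM per kb in adenoma and 1.92 in wild type, and Acacb at 0.842 in adenoma and 1.33 in wild type.

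Stearoyl-CoA desaturases, which place the first double bond in saturated fatty acids, had the 2 largest log2 fold changes of the 30 genes. Scd2 (ENSMUSG00000025203, chr19:44293674-44306864 on GRCm38) stood at 432, 724, 693, 524 and 549 CPM in adenomas 1 to 5, against 51.3, 93.4 and 75.6 CPM in wild types 1 to 3. The lowest adenoma was several times above the highest wild type, and the log2 fold change was 2.99 ± 0.27 (edgeR adjusted p = 5.51e-05), or 7.96-fold, and 2.23 under pan-epithelial scaling (edgeR adjusted p = 5.13e-04). Per exon length Scd2 was the most abundant of the 30 genes in adenoma, at 107 CPM per kb, against 13.4 in wild type. Scd1 (ENSMUSG00000037071, chr19:44394455-44407879 on GRCm38) stood at 55.2, 99.2, 121, 74.0 and 76.9 CPM in adenomas 1 to 5, against 32.5, 4.68 and 7.97 CPM in wild types 1 to 3. Wild type 1 was far above the other wild types, and it also held the most pancreatic RNA; without it the log2 fold change was 3.76, and with all libraries 2.50 ± 0.64 (edgeR adjusted p = 0.0119). Its call was lost with the Xist pattern as a covariate, at 1.87 (edgeR adjusted p = 0.139). The related Scd3 was low, at 1.85 ± 0.361 CPM in adenoma and 0.0909 ± 0.0661 CPM in wild type, with 1 to 3 counts in each wild type, and reads shared among these close copies limit the count of each.

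Elovl6, which lengthens palmitate to stearate, and Me1, the malic enzyme that supplies NADPH for synthesis, were set apart by adenoma 2. Elovl6 stood at 166, 34.0, 175, 195 and 169 CPM in adenomas 1 to 5, against 94.8, 115 and 105 CPM in wild types 1 to 3. Me1 stood at 35.4, 8.92, 36.9, 41.4 and 40.3 CPM in adenomas 1 to 5, against 16.4, 14.9 and 23.3 CPM in wild types 1 to 3. For both genes adenoma 2 was the lowest library and the other 4 adenomas were above every wild type. With all libraries the log2 fold change was 0.50 ± 0.48 (edgeR adjusted p = 0.400) for Elovl6 and 0.84 ± 0.45 (edgeR adjusted p = 0.145) for Me1. Without adenoma 2 both were called higher, at 0.74 (edgeR adjusted p = 1.22e-04) for Elovl6 and 1.07 (edgeR adjusted p = 2.21e-04) for Me1, while under pan-epithelial scaling with all libraries they stood at -0.41 and -0.05. Adenoma 2 also held the lowest sum of enterocyte markers, the highest macrophage sum, at 671 CPM against 261 to 388 CPM in the other adenomas, the highest smooth muscle sum of the adenomas, at 995 CPM, and the highest share of the 4 genes that collect ribosomal RNA reads, at 23.5%. The part of these in the values of Elovl6 and Me1 was not tested.

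**Figure D4:**
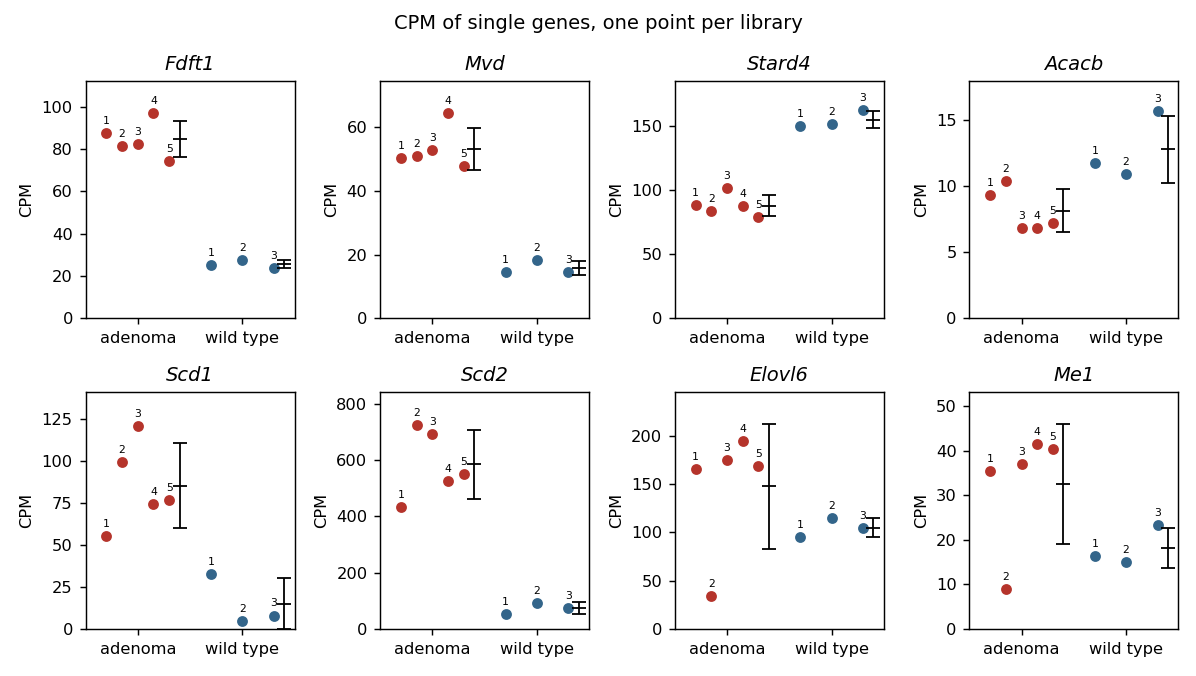
CPM (TMM scaling) of 8 of the genes, 1 point for each library numbered by its replicate, with adenomas left of wild types and black bars for the mean ± SD. Fdft1, Mvd, Scd1 and Scd2 are higher and Stard4 and Acacb lower in every adenoma than in every wild type, and adenoma 2 lies at 34.0 CPM for Elovl6 and 8.92 CPM for Me1.

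Related genes outside the 30 were taken from 5 lists of 70 genes, of which 68 were tested; 29 were called higher and 14 lower under TMM, and 5 higher and 34 lower under pan-epithelial scaling. Counts of these lists stand beside 30.3% of all genes called higher and 27.8% lower under TMM, and 5.83% higher and 54.4% lower under pan-epithelial scaling. Other genes of sterol and isoprenoid synthesis counted 3 higher and 2 lower of 10 under TMM, and 0 higher and 8 lower under pan-epithelial scaling. The 3 of 10 called higher are near the share of all genes. The median of the list was 0.12 on the log2 scale under TMM. Erg28, a scaffold for the enzymes that remove methyl groups, was at 45.1 ± 8.53 CPM in adenoma and 29.8 ± 0.290 CPM in wild type, a log2 fold change of 0.60 ± 0.17 (edgeR adjusted p = 0.0132). Ggps1, which makes the prenyl group used on small GTPases, had a log2 fold change of 0.30 ± 0.09 (edgeR adjusted p = 0.0189). Pdss1 and Pdss2, which build the side chain of coenzyme Q from the same precursors, were lower, at -0.80 ± 0.16 (edgeR adjusted p = 0.00256) for Pdss1 and -0.45 ± 0.12 (edgeR adjusted p = 0.0112) for Pdss2.

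The machinery that moves and cuts SREBP had 6 of 12 genes higher and 1 lower under TMM, and 0 higher and 5 lower under pan-epithelial scaling. Scap, which escorts SREBP out of the endoplasmic reticulum, stood at 107, 95.7, 92.5, 104 and 103 CPM in adenomas 1 to 5, against 41.2, 53.5 and 51.3 CPM in wild types 1 to 3. The adenomas were tightly grouped, at a log2 fold change of 1.05 ± 0.11 (edgeR adjusted p = 1.02e-04). Mbtps1, the protease that makes the first cut, had a log2 fold change of 0.58 ± 0.09 (edgeR adjusted p = 6.71e-04), and Npc1, which exports cholesterol from lysosomes, 0.38 ± 0.06 (edgeR adjusted p = 0.00123). Erlin1, part of a complex that takes part in degrading sterol-regulated proteins, was lower, at 24.0 ± 3.26 CPM in adenoma and 70.8 ± 1.01 CPM in wild type, a log2 fold change of -1.56 ± 0.11 (edgeR adjusted p = 2.59e-05).

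The list of LXR receptors and the sterol exporters they induce, which also held Lpcat3, had 4 of 7 genes lower and 1 higher under TMM. Under pan-epithelial scaling 6 were lower and 0 higher. The median log2 fold change of the list under TMM was -1.05. Nr1h3, which encodes LXR alpha, stood at 17.0, 12.0, 21.8, 15.0 and 15.0 CPM in adenomas 1 to 5, against 50.9, 40.4 and 46.5 CPM in wild types 1 to 3. The groups lay apart, at a log2 fold change of -1.51 ± 0.18 (edgeR adjusted p = 1.99e-04). Abca1, which loads cholesterol onto lipoprotein, stood at 130.04, 229, 132, 124 and 152 CPM in adenomas 1 to 5, against 324, 313 and 317 CPM in wild types 1 to 3. Adenoma 2 was highest of the adenomas, and the log2 fold change was -1.05 ± 0.20 (edgeR adjusted p = 0.00211). Abcg8, a half-transporter that returns sterol to the gut lumen, had a log2 fold change of -2.17 ± 0.45 (edgeR adjusted p = 0.00411), while Abcg1, which exports cholesterol to lipoprotein, was at 24.4 ± 6.21 CPM in adenoma and 9.98 ± 1.02 CPM in wild type, a log2 fold change of 1.29 ± 0.21 (edgeR adjusted p = 8.96e-04). Abcg1 was not called higher under pan-epithelial scaling.

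Other genes of fatty acid synthesis, elongation and desaturation had 14 of 24 tested higher and 3 lower under TMM, and 2 higher and 7 lower under pan-epithelial scaling. Under TMM the list had a median of 0.68 on the log2 scale. Mid1ip1, an activator of acetyl-CoA carboxylase, stood at 61.9, 79.0, 70.6, 65.5 and 63.0 CPM in adenomas 1 to 5, against 21.7, 26.4 and 26.2 CPM in wild types 1 to 3. No adenoma came near the wild types, and the log2 fold change was 1.46 ± 0.12 (edgeR adjusted p = 3.64e-05). Elovl5, an elongase of polyunsaturated fatty acids, was at 79.4 ± 4.52 CPM in adenoma and 39.8 ± 2.87 CPM in wild type, a log2 fold change of 1.00 ± 0.08 (edgeR adjusted p = 4.66e-05). Mlxipl, the carbohydrate-response factor ChREBP that also drives lipogenic genes, stood at 18.5, 6.01, 35.2, 20.1 and 19.9 CPM in adenomas 1 to 5, against 132, 121 and 139 CPM in wild types 1 to 3. It had the most negative value of this list, with a log2 fold change of -2.71 ± 0.44 (edgeR adjusted p = 0.00133), and its partner Mlx was lower too, at -0.57 ± 0.12 (edgeR adjusted p = 0.00380).

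Genes that activate fatty acids and store them as esters had 5 of 15 higher and 4 lower under TMM, and 3 higher and 8 lower under pan-epithelial scaling. The TMM counts, and the 8 lower, are near the shares of all genes. Leaving out 1 library gave 1 to 5 lower, with 1 without wild type 1 or wild type 3 and 2 without wild type 2 or adenoma 5. Without wild type 1 and adenoma 5 together, and with the Xist pattern as a covariate, 0 were called lower (edgeR). Acsl3 and Acsl4, which attach coenzyme A to fatty acids, were at 178 ± 31.3 CPM in adenoma and 39.7 ± 6.64 CPM in wild type for Acsl3 and 67.5 ± 8.10 CPM in adenoma and 18.1 ± 2.21 CPM in wild type for Acsl4, with log2 fold changes of 2.17 ± 0.18 (edgeR adjusted p = 4.63e-05) and 1.90 ± 0.13 (edgeR adjusted p = 2.08e-05). Other genes of this family went the other way. Acsl1 was called lower, at -0.51 ± 0.16 (edgeR adjusted p = 0.0206), with overlapping groups. Acsl5 was at 628 ± 317 CPM in adenoma and 1560 ± 264 CPM in wild type, and every adenoma was below every wild type. Its log2 fold change of -1.31 ± 0.54 was not called (edgeR adjusted p = 0.0669). The sterol esterifying enzymes went opposite ways. Soat1, found in many tissues, stood at 135, 149, 109.7, 138 and 145 CPM in adenomas 1 to 5, against 45.1, 48.1 and 50.2 CPM in wild types 1 to 3. Soat2, the form of enterocytes and liver, stood at 52.2, 3.05, 65.8, 39.5 and 25.4 CPM in adenomas 1 to 5, against 202, 182 and 183 CPM in wild types 1 to 3. Log2 fold changes were 1.50 ± 0.12 (edgeR adjusted p = 3.26e-05) for Soat1 and -2.35 ± 0.71 (edgeR adjusted p = 0.0230) for Soat2, and adenoma 2 held the least Soat2.

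**Figure D5:**
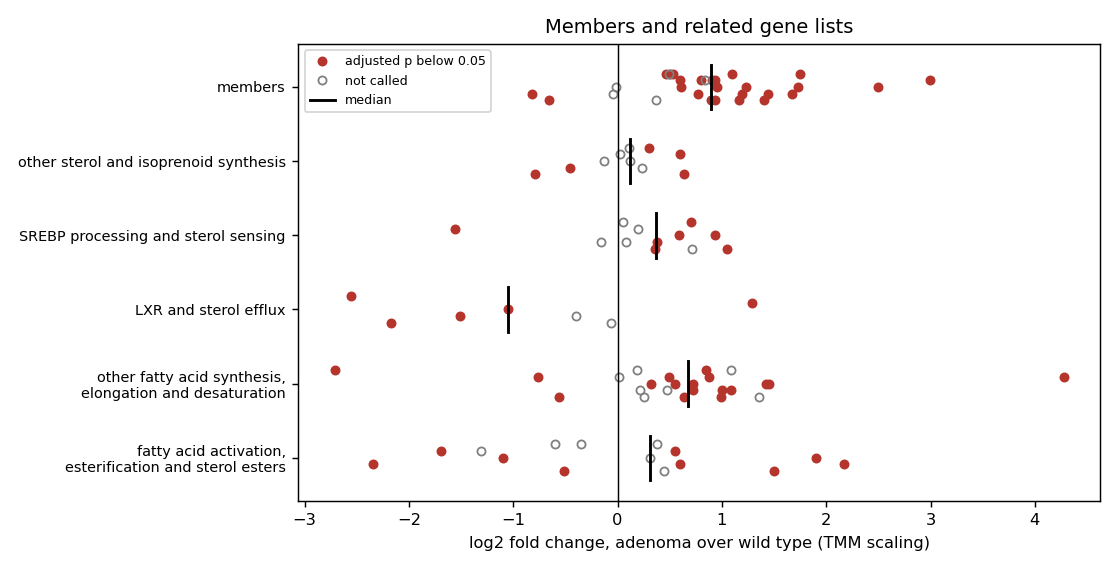
Log2 fold changes under TMM scaling for the 30 genes and the 68 tested genes of the 5 related lists, with 1 point for each gene, filled where the adjusted p was below 0.05, and black bars at the medians. The medians are 0.90 for the 30 genes and -1.05 for LXR and sterol efflux; under pan-epithelial scaling the median of the 30 genes is 0.06.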

How the data were processed

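RNA of whole tissue was sequenced in 8 libraries. Extraction used Qiagen RNeasy kits per the labels' protocols, and TruSeq RNA v2 libraries, which do not keep strand, were read on a NextSeq as paired ends of 36 cycles. The authors deposited raw counts per gene. The submitters' processing notes name FastQC, TopHat2, HTSeq and GRCm38; for versions, annotation, strand setting and filters the entry is "not given in the sources used here". All 8 columns were assigned by name. Symbols, positions and exon lengths came from GENCODE M21 (GRCm38).

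Counts were fitted over all genes with edgeR 4.0.16 in R 4.3.3 (filterByExpr, TMM, robust quasi-likelihood test of adenoma against wild type, Benjamini-Hochberg adjustment at 0.05), a procedure checked on simulated data. The SE is the log2 fold change divided by the square root of F. Library pairs of a group differed beyond sampling noise (chi-square per degree of freedom 20.1 to 149). Alternatives were RLE, total-count and pan-epithelial scaling, no filter, a filter of 5 CPM in 3 libraries, a block for the replicate number, each library left out, wild type 1 and adenoma 5 left out, the Xist pattern as a covariate and DESeq2 1.42.0. Members, lists and tests were chosen with earlier results of these data known. From each related list the rule takes the 3 called genes with the smallest adjusted p each way; not all of them are reported here.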

Additional observations from a re-analysis of the deposited data

Results flagged for a closer look

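Among the 5 adenomas, 6 of the 30 genes had 1 library set apart from the rest. The measure was the gap to its neighbour as a share of the range of the group. Chance gives about 1 in 20 independent groups, but these genes share the same 5 libraries. The measure takes no account of how wide the range is. The highest adenoma was 1.14 times the lowest for Acaca and 1.16 times for Dhcr7, against 5.73 times for Elovl6 and 4.64 times for Me1. Elovl6 was at 34.0 CPM in adenoma 2, with 166 CPM in the next lowest adenoma, and Me1 at 8.92 CPM in adenoma 2, with 35.4 CPM next. Acaca was highest in adenoma 2, at 49.6 CPM with 45.0 CPM next. Srebf1 was highest in adenoma 3, at 270.6 CPM with 189.7 CPM next. Mvd was highest in adenoma 4, at 64.6 CPM with 52.7 CPM next, and Dhcr7 was lowest in adenoma 1, at 18.6 CPM with 20.8 CPM next.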

How the results depend on the processing

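Of 510 log2 fold changes of the 30 genes under 17 alternatives, 453 kept their direction and side of the threshold and 22 turned. Of those that kept their direction, 30 lost their call and 5 gained one. Some that turned changed side too. Under pan-epithelial scaling Hmgcs1 turned and lost its call, and Ebp turned and was called lower. Mvd, Fdps, Fdft1, Cyp51, Tm7sf2, Stard4 and Scd2 kept their calls throughout. Scaling to pan-epithelial genes moved most: 1070 genes were higher and 9987 lower, or 9.68% of calls higher against 52.2%, with 7 higher and 5 lower among the 30 and 5 higher and 34 lower among the related lists. There Hmgcs1 stood at -0.06, Msmo1 at -0.22, Nsdhl at -0.01, Hsd17b7 at -0.34, Ebp at -0.47, Srebf1 at -0.21, Srebf2 at -0.28, Acaca at -0.31, Elovl6 at -0.41 and Me1 at -0.05. Total-count scaling and no filter turned Sc5d (0.03 and 0.02) and Dhcr7 (0.07 and 0.04). With each library left out, 21 to 26 of the 30 were higher and 1 to 2 lower, 1 without wild type 3; Sc5d ranged over -0.12 to 0.09, at 0.06 without wild type 1 and 0.09 without adenoma 2, and Dhcr7 over -0.18 to 0.08, at 0.07, 0.08 and 0.01 without wild type 2, wild type 3 or adenoma 1. Without wild type 1 and adenoma 5 together, 1 of the 30 and 8 related genes were lower, and Sc5d was at 0.06. With the Xist pattern as a covariate, where the group difference rests on adenoma 1 against wild type, 3074 genes were higher and 2298 lower, 16 of the 30 were higher and 1 lower, 19 related genes were higher and 3 lower, and Sc5d was at 0.06. The cause of these changes was not tested. The replicate numbers did not pair the libraries (correlations of deviations -0.018, 0.051 and 0.061); with a replicate block 3345 genes were higher and 3204 lower, 19 of the 30 were higher and 1 lower, and Elovl6 was at -0.02. DESeq2 called 23 of the 30 higher and 2 lower. The least counted of the 30, Scd1, had 84 counts in its lowest library, while Scd3 rests on 1 to 3 counts in each wild type.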

Other observations

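Genes described here were picked after their values were seen. The desaturases of polyunsaturated fatty acids were higher in all 5 adenomas than in all wild types under TMM. Fads1 stood at 87.3, 107, 111, 114 and 128 CPM in adenomas 1 to 5, against 49.3, 57.3 and 48.1 CPM in wild types 1 to 3. Fads2 stood at 91.2, 151, 114, 124 and 112 CPM in adenomas 1 to 5, against 40.6, 51.8 and 40.3 CPM in wild types 1 to 3. Their log2 fold changes were 1.08 ± 0.13 (edgeR adjusted p = 2.26e-04) for Fads1 and 1.42 ± 0.17 (edgeR adjusted p = 2.23e-04) for Fads2. Under pan-epithelial scaling 2 of the 24 tested genes of their list were called higher and 7 lower. Among all genes tested, 5.83% were called higher there and 54.4% lower. Values of Fads1 and Fads2 under that scaling are not given here. Pparg, a lipid-sensing nuclear receptor of fat cells and of intestinal epithelium, stood at 27.5, 29.3, 33.4, 40.4 and 43.2 CPM in adenomas 1 to 5, against 12.4, 7.02 and 8.95 CPM in wild types 1 to 3. Among other markers of fat cells Adipoq was at or near 0 in every library, while Fabp4, a fatty acid carrier of fat cells that is also found in endothelium and macrophages, was at 15.2, 12.1, 16.5, 18.1 and 14.3 CPM in adenomas 1 to 5, against 9.57, 9.47 and 9.28 CPM in wild types 1 to 3.

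Dgat1 and Abcg5, which handle fat and sterol in enterocytes, were lower in all 5 adenomas than in all wild types under TMM, with the lowest level in adenoma 2. Dgat1, which makes triglyceride, stood at 243, 32.4, 328, 215 and 178 CPM in adenomas 1 to 5, against 803, 548 and 581 CPM in wild types 1 to 3. Abcg5, the partner of Abcg8 in sterol return to the lumen, stood at 61.9, 11.0, 83.8, 47.3 and 35.5 CPM in adenomas 1 to 5, against 339, 248 and 259 CPM in wild types 1 to 3. The log2 fold changes were -1.69 ± 0.57 (edgeR adjusted p = 0.0335) for Dgat1 and -2.56 ± 0.53 (edgeR adjusted p = 0.00432) for Abcg5.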
